A study of Ovis aries with 18 samples.

Results

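ADAM11 (ENSOARG00000008974) and VSIG1 (ENSOARG00000018478) encode cell surface proteins of the testis, and both are listed by the study as lower in lambs of ewes fed a gossypol-rich diet. They are 2 of the 29589 gene IDs in the deposited files and 2 of the 19 IDs that could be paired with the symbol of a gene the study named or marked in a plot. The pair was chosen from the diet contrast of these same lambs, so the values by diet are given as a description and carry no test. The samples are testicles of 18 male lambs of the Santa Inês breed (Ovis aries) at an age of 60 days, with 1 RNA-seq library per lamb. Of these, 9 were born to ewes on a control diet of corn and soybean, and 9 to ewes on a cottonseed diet rich in gossypol, a pigment of the cotton plant known for its toxicity to the male germ line. The ewes were assigned to the diets at random and received them through pregnancy and lactation, up to the day of sampling. All lambs received hay and the same creep feed of corn and soybean meal. Library totals ran from 14468612 to 22334428 counts for control lambs and from 15240624 to 20660132 counts for gossypol lambs. Expression is given as CPM, the count of an ID relative to the total of its library, after scaling of the libraries by the TMM method of edgeR. CPM does not correct for gene length, so levels are compared between lambs and not between genes.

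The ADAM proteins are membrane-anchored and combine a metalloprotease-like domain with a disintegrin domain that can bind integrins on other cells. ADAM11 is one of the members without a working protease site, so that it is thought to act by binding, and it is best known from the nervous system. VSIG1 lies on the X chromosome and is known from testis and from the epithelium of the stomach. Its protein belongs to the immunoglobulin superfamily and has the junctional adhesion molecules among its relatives. At the age sampled here the lamb testis is prepubertal and its seminiferous tubules are still maturing. The RNA came from whole testicle tissue, in which fewer cells of a type and less RNA per cell cannot be told apart. FATE1, a gene known mainly from testis, was counted in every lamb, from 19.5 CPM in gossypol lamb H08 to 1289 CPM in control lamb H22. It is itself among the genes the study listed as lower, with a log2 fold change of -2.59, and its level moved with that of ADAM11 within both diets. Other marker genes of testis cell types were not analysed here.

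ADAM11 was expressed in every lamb of both diets, over a wide range. In the control diet its level ran from 33.6 CPM in lamb H44 to 1539 CPM in lamb H29, with a median of 515 CPM. In the gossypol-rich diet it ran from 16.6 CPM in lamb H41 to 214 CPM in lamb H01, with a median of 38.99 CPM. The diets overlapped, with 5 of the 9 control lambs above every gossypol lamb and the other 4 within the gossypol range. The 5 were H37 with 515 CPM, H06 with 988 CPM, H20 with 1008 CPM, H22 with 1351 CPM and H29 with 1539 CPM. The other 4 control lambs had between 33.6 and 151 CPM, and the step from these 4 to the 5 higher ones, 1.77 on the log2 scale, was the largest among control lambs. Among gossypol lambs, H01, H48 and H12 were the highest, with 214, 168 and 103 CPM, and the remaining 6 had at most 54.4 CPM. Control lambs averaged 647 ± 584 CPM (SD, n = 9). Gossypol lambs averaged 75.4 ± 71.5 CPM (SD, n = 9), so that the SD was nearly as large as the mean in both diets. With at least 298 counts in every lamb, counting error was small beside the spread between lambs.

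VSIG1 was at or below 1.95 CPM in 14 lambs and between 6.57 and 137 CPM in 4 lambs of the control diet. The 9 gossypol lambs ran from 0.692 CPM in lamb H48 to 1.95 CPM in lamb H12, with a median of 1.78 CPM. The control lambs ran from 0.711 CPM in lamb H31 to 137 CPM in lamb H22, with a median of 1.88 CPM. Both medians were thus alike, while the mean of the control lambs was 22.02 ± 44.5 CPM (SD, n = 9). For the gossypol lambs it was 1.62 ± 0.439 CPM (SD, n = 9). The 4 control lambs above every gossypol lamb were H20 with 6.57 CPM, H29 with 13.6 CPM, H06 with 34.3 CPM and H22 with 137 CPM. These 4 lambs held 96.7% of the summed CPM of the control diet, and H22 alone held 69.2%. The largest step among control lambs, 1.99 on the log2 scale, separated H22 from the rest. The other 5 control lambs, with 0.711 to 1.88 CPM, were no higher than the highest gossypol lamb. The highest lamb, H22, had 84.6 times the mean of the gossypol lambs.

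The low level of VSIG1 rested on few reads. It corresponded to 12 to 41 counts per lamb, while the 4 high control lambs had 103, 233, 630 and 3129 counts. For lamb H48, 14 counts gave 0.692 CPM, with an exact 95% Poisson interval of 0.379 to 1.16 CPM. For lamb H12, 40 counts gave 1.95 CPM, with an interval of 1.39 to 2.66 CPM. Such intervals cover counting error only. Over the 9 gossypol lambs the variance of the VSIG1 counts was 2.33 times that of Poisson counting, against 1245 times for ADAM11. Counting error was therefore a sizeable part of the small spread of VSIG1 in gossypol lambs. Small differences among the low lambs were hardly resolved at this depth, although the intervals of H48 and H12 did not overlap.

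**Figure D1:**
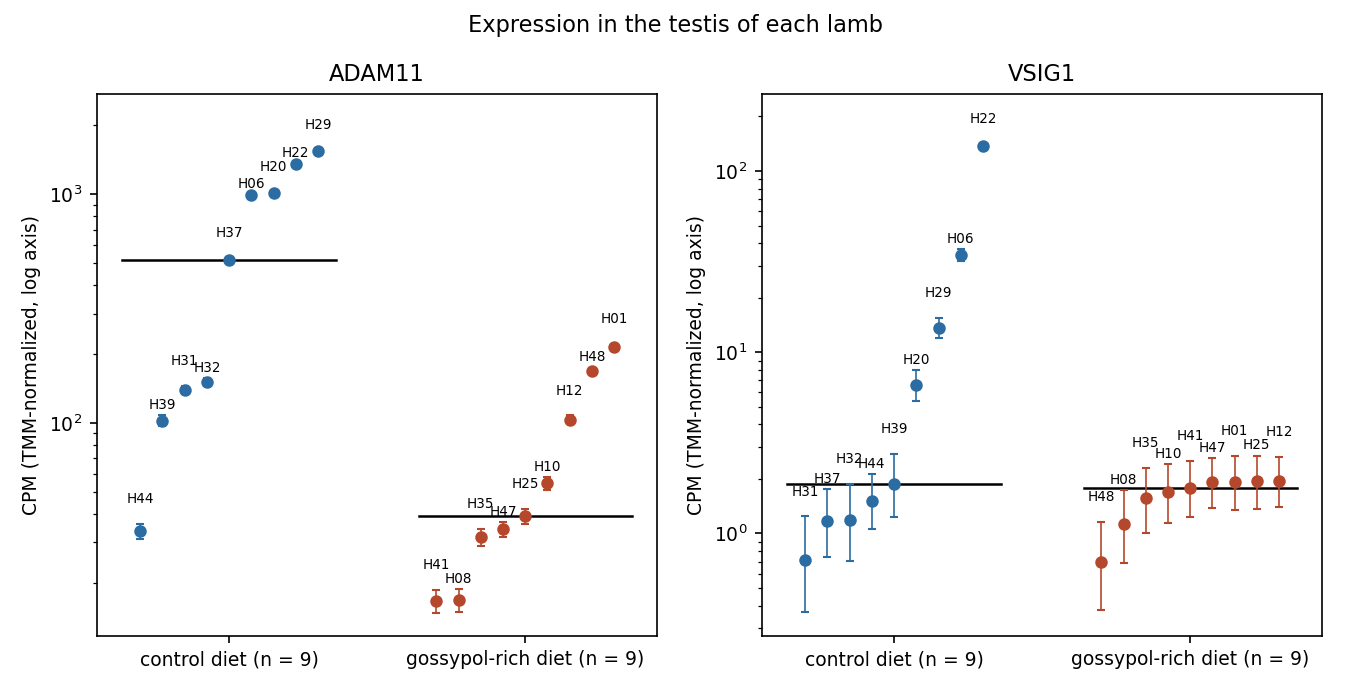
Expression of ADAM11 and VSIG1 in each lamb, in TMM-normalized CPM on a log axis. Points are lambs in order of their level within each diet, bars are exact 95% Poisson intervals of the count, and horizontal lines are medians over 9 lambs. In ADAM11 5 control lambs lie above the highest gossypol lamb, and VSIG1 is at or below 1.95 CPM in all but 4 control lambs.

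The diet contrast, from which both genes were chosen, is described by its fitted fold changes. In edgeR's quasi-likelihood model the log2 fold change, gossypol against control, was -3.10 (standard error 0.68) for ADAM11 and -3.76 (standard error 0.89) for VSIG1. Both genes were among the 332 IDs called at a false discovery rate (FDR) of 10%, which are 1.78% of the 18640 IDs tested. At an FDR of 5% the same test called 0 IDs, and 4327 had an unadjusted p under 0.05. At 10% limma-voom called 0 IDs, as did the quasi-likelihood test in 11 of the 18 fits with a lamb left out, while edgeR's exact test called 1733, its likelihood ratio test 1851 and DESeq2 2206. Of the tested IDs, 1.27% were called lower and 0.51% higher in gossypol lambs. Nothing is read from these calls, since this contrast chose both genes. At least 5 control lambs above every gossypol lamb, as in ADAM11, occurred in 6.36% of all tested IDs, and at least 4, as in VSIG1, in 11.6%. The fold change of ADAM11 was also seen in the middle of the distribution, since the medians of log2 CPM differed by -3.72 and the means by -2.77. For VSIG1 the medians differed by -0.07 and the means by -1.58. The fitted fold change of VSIG1 depended on 1 lamb and was -2.23 without control lamb H22, and limma-voom, which works on log values, gave -1.68.

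The spread between lambs was large for both genes in the control diet, and for ADAM11 also in the gossypol-rich diet. It is a description, since these SDs come from the values of the contrast that chose both genes. Nothing is read from their place among all profiles. The SD of log2 CPM of ADAM11 was 1.97 in control and 1.34 in gossypol lambs (n = 9 each). Among the 17922 distinct count profiles tested, 0.257% had an SD at least as large in the control diet and 1.07% in the gossypol-rich diet, where the median profile had 0.40 and 0.43. The SD of log2 CPM of VSIG1 was 2.54 in control but 0.46 in gossypol lambs. In the control diet 0.0837% of profiles had at least that SD, while in the gossypol-rich diet 44.9% did. These profiles include all count levels, whereas VSIG1 had 14 to 41 counts in gossypol lambs. Its SD there holds a sizeable part of counting error, so the comparison is not between like profiles.

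The ratio of the control SD to the gossypol SD differed between the genes. It was 1.47 for ADAM11, which 14.5% of profiles reached, and 5.52 for VSIG1, against a median of 0.933 over all profiles. Of the 17922 profiles, 5 had a ratio as high as that of VSIG1, itself included. VSIG1 was chosen for a mean that was higher in control lambs, so a high ratio follows in part from the choice. Nothing is read from its rank. Their names are given here after their values were seen. They were SLC4A5 with 8.09, ENSOARG00000017615 with 6.04, ENSOARG00000015215 with 5.74, MAGEA10 with 5.72 and VSIG1 with 5.52. SLC4A5 encodes a sodium bicarbonate cotransporter, MAGEA10 is an X-linked cancer-testis antigen, and the other two IDs have no symbol in the sources used here. SLC4A5 and MAGEA10 are also in the study's list of lower genes, which was drawn up on these lambs.

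Within the control diet, high VSIG1 was found only in lambs with high ADAM11. The 4 lambs with high VSIG1 were the 4 with the highest ADAM11. Their order differed, however, since H29 had the highest ADAM11 and only the third highest VSIG1, and H06 had the lowest ADAM11 of the 4 and the second highest VSIG1. The fifth lamb in the order of ADAM11, H37, had 515 CPM of ADAM11 but only 1.17 CPM of VSIG1. Below that level of ADAM11, control and gossypol lambs alike had at most 1.95 CPM of VSIG1. No gossypol lamb had more than 214 CPM of ADAM11, so the range in which VSIG1 was high in control lambs was not sampled in the gossypol-rich diet.

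**Figure D2:**
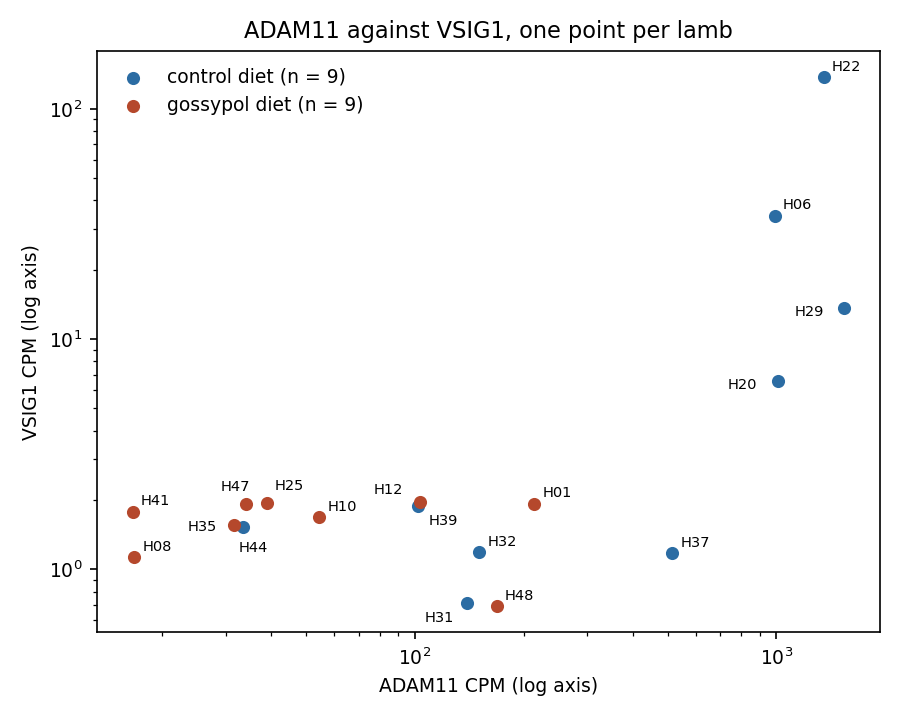
VSIG1 against ADAM11 in CPM, both on log axes, with 1 point per lamb coloured by diet (n = 9 each). VSIG1 lies between 0.692 and 1.95 CPM in 14 lambs whose ADAM11 runs from 16.6 to 515 CPM, and between 6.57 and 137 CPM in the 4 control lambs with ADAM11 from 988 to 1539 CPM.

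The relation between both genes is given as a description without a test, because both were listed as lower on these same lambs and both folds rest in part on the same 4 control lambs. Over the 9 control lambs, Pearson's r of log2 CPM was 0.74 and Spearman's rho was 0.65. Without H39 and H44, the lambs farthest from the ADAM11 median, r was 0.82 and rho 0.79 over 7 lambs. On the linear CPM scale r over the 9 lambs was 0.57. Over the 9 gossypol lambs r was -0.16 and rho was 0.25. This value rested on lamb H48, which had the lowest VSIG1 and the second highest ADAM11 of its diet, and r was 0.59 without it. Whether the relation differed between diets is not read from these values.

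Neither gene had a relation with the size or composition of the libraries that passed a test. These 8 relations compared each gene within each diet with the total count and with the share of counts in the 10 highest IDs. Their Pearson r ran from -0.02 to 0.56, with the highest for VSIG1 and the total count in control lambs (r = 0.56, rho = 0.23, 2-sided exact permutation tests, p = 0.114 and 0.552, or 0.434 and 0.776 after Benjamini-Hochberg adjustment over 10 relations, the pair's own in each diet included). Without H20 and H39 this r was 0.71 (2-sided exact permutation test, p = 0.075, n = 7). Lamb H22, with the highest VSIG1, was also the most deeply sequenced, and its part in the result was not tested. Highest by Spearman's rho was ADAM11 with the total count in gossypol lambs (r = 0.54, rho = 0.57, 2-sided exact permutation tests, p = 0.130 and 0.121). Without H20 and H44, r with the share of the 10 highest IDs in control lambs went from 0.34 to -0.45 for ADAM11. For VSIG1 it went from -0.02 to -0.50. The r of VSIG1 with the total count in gossypol lambs went from -0.01 to -0.48 without H08 and H35. The control lamb with the lowest ADAM11, H44, had the lowest share of counts in the 10 highest IDs, 4.62%, against 6.71% to 8.82% in the other control lambs.

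The IDs that follow each gene were ranked by Pearson's r of log2 CPM over the 18 lambs after the mean of each diet had been subtracted, as a description without a test. All IDs share the same 18 libraries in such a comparison and are not independent of each other. ADAM11 had many close followers. Of the other 17921 profiles, 542 (3.02%) had r of at least 0.8 with ADAM11 and 485 (2.71%) had r of -0.8 or lower. With VSIG1, 22 profiles (0.123%) reached 0.8 and 35 (0.195%) reached -0.8. Within control lambs alone, 1896 profiles had r of at least 0.8 with ADAM11 and 474 with VSIG1. Within gossypol lambs alone the counts were 360 and 125. The same profile reached 0.8 in control and also in gossypol lambs in 229 cases (1.28%) for ADAM11 and in 0 for VSIG1. VSIG1 itself had r = 0.59 with ADAM11, which put it at rank 2100 among the profiles following ADAM11. The 50 closest profiles of each gene shared no member.

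The closest follower of ADAM11 was ENSOARG00000019436, with r = 0.99 over 18 lambs, 0.99 within control and 0.98 within gossypol lambs. Its mean level was 327 CPM in control lambs against 120 CPM in gossypol lambs. ENSOARG00000004512 came next with r = 0.98, and mean levels of 57.1 and 10.6 CPM. With any lamb left out their r stayed at or above 0.98 and 0.97, respectively. The profiles that ran most opposite were XLOC_010753, an assembled locus outside the annotation, with r = -0.97, and ENSOARG00000020413, with r = -0.96. None of the 10 closest followers of ADAM11 has a symbol in the sources used here. Within gossypol lambs, the 50 closest profiles had r with ADAM11 from 0.83 to 0.99, with a median of 0.93, and within control lambs from 0.95 to 0.99. High values within each diet are largely fixed by the choice of these 50 over both diets together.

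The closest follower of VSIG1 was MAGEA10, with r = 0.90 over 18 lambs and 0.93 within control lambs, but -0.11 within gossypol lambs. The next was ENSOARG00000010838 with r = 0.87, and SLC4A5 was the tenth with r = 0.83. SLC4A5 had r = 0.86 within control and -0.05 within gossypol lambs. XLOC_005795 and XLOC_026346 ran most opposite to VSIG1, both with r = -0.88. Their mean levels were low, 5.09 and 0.346 CPM in control and 5.53 and 0.772 CPM in gossypol lambs. Within gossypol lambs the 50 closest profiles had r with VSIG1 from -0.73 to 0.73, with a median of -0.03, and 24 of the 50 were above 0. The ranking over 18 lambs weighs the diet with the larger spread, and the SD of VSIG1 was 2.54 in control and 0.46 in gossypol lambs. These 50 were therefore largely chosen on the control lambs, and nothing is read from their r in gossypol lambs. Within gossypol lambs alone, 125 profiles had r of at least 0.8 with VSIG1, in a narrow and weakly counted range. Which profiles ranked closest also depended on single lambs. With 1 lamb left out, between 40 and 48 of the 50 profiles closest to ADAM11 were shared with the full ranking. For VSIG1 it was between 25 and 49, the lowest without control lamb H22.

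**Figure D3:**
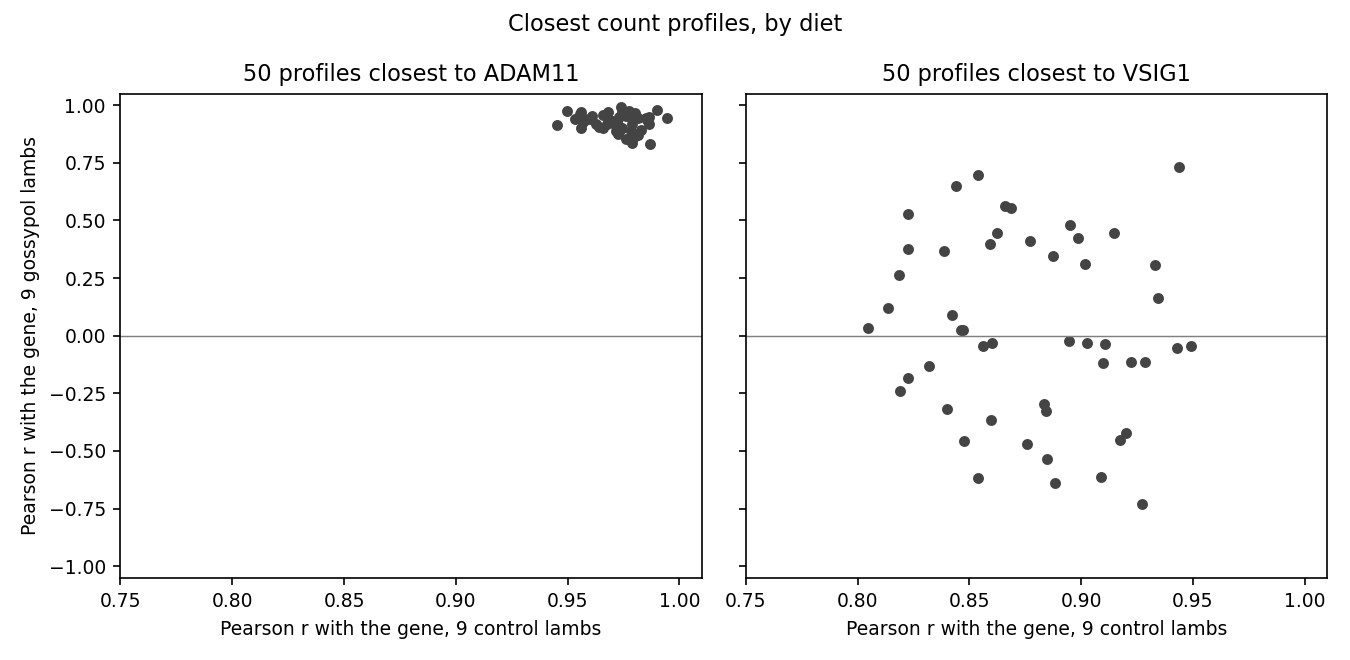
Pearson's r of log2 CPM with ADAM11 (left) and VSIG1 (right) for the 50 closest count profiles of each, within 9 control lambs (horizontal axis) and within 9 gossypol lambs (vertical axis). The profiles closest to ADAM11 have r from 0.83 to 0.99 in gossypol lambs, while those closest to VSIG1 scatter from -0.73 to 0.73.

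The diet contrast of the closest profiles is given as a description. They were chosen for their likeness to genes that this contrast had selected in the same lambs, so a shared direction and an excess of calls follow in part from the choice and nothing is read from them. All 50 profiles closest to ADAM11 had a negative log2 fold change, from -3.74 to -0.27 with a median of -1.07, and over all tested IDs the median was 0.03 and 46.4% were negative. Of the 50, 22 were called lower at an FDR of 10% by edgeR's quasi-likelihood test, and of all profiles 1.26% were called lower and 1.76% in either direction. Among the 50 profiles closest to VSIG1, 49 had a negative log2 fold change, with a median of -0.73, and 11 were called lower. The 50 most opposite to ADAM11 all had a positive log2 fold change, with a median of 0.75, but the same test called 1 of them (2%). Of the 50 most opposite to VSIG1, 45 had a positive log2 fold change and 0 were called, where 4327 of all tested IDs had an unadjusted p under 0.05. The counts of calls depended on single lambs. With a lamb left out, both the 50 closest profiles and the diet fit were computed anew, so that the list and the calls could change together. Without any 1 of the 5 control lambs highest in ADAM11 (H06, H20, H22, H29 and H37), or of the gossypol lambs H08, H10, H25, H35, H41 and H47, no profile of either list was called. In these 11 fits edgeR's quasi-likelihood test called 0 of all tested IDs, while 3095 to 3931 IDs had an unadjusted p under 0.05. Without control lamb H44 the count was 49 for ADAM11 and 28 for VSIG1, and without gossypol lamb H48 it was 49 and 35, but in these fits 3591 and 2963 of all tested IDs were called, against 332 with all lambs. Without control lambs H31, H32 or H39 it was 43 to 46 for ADAM11 and 30 to 32 for VSIG1, with 1310 to 2124 of all tested IDs called. The numbers without gossypol lamb H01 were 45 and 18, and without H12 29 and 17, with 987 and 848 of all tested IDs called. In each of the 18 fits with a lamb left out, all 50 profiles then closest to ADAM11 had a negative log2 fold change, with a median from -1.22 to -0.93. Of the 50 then closest to VSIG1, between 46 and 50 had a negative one.

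The likeness of both genes to 17 other genes with symbols was examined next. The study named these genes in its text, or in the case of GFRA3 marked it in a plot, for their difference in these same lambs, so their direction is no independent evidence. All 10 of those lower in gossypol lambs had a positive r with ADAM11 within control lambs, from 0.89 for MAGEA10 to 0.98 for CST9L, a member of the cystatin family of cysteine protease inhibitors. Within gossypol lambs 9 of the 10 were positive. FATE1 had r = 0.97 with ADAM11 in control and 0.88 in gossypol lambs, and CYP4F21, a cytochrome P450 gene whose counts are identical to those of other IDs, had 0.97 and 0.91. MAGEB18, another X-linked MAGE gene, had 0.93 and 0.82. In LRRC8B, a subunit of volume-regulated anion channels, and MAP3K15, a protein kinase, r was 0.94 and 0.93 in control and 0.76 and 0.74 in gossypol lambs. KIAA1210, which encodes an acrosomal protein, had 0.96 and 0.65, and PRND, which encodes the prion-like protein doppel, 0.92 and 0.43. The exception was MAGEA10, with r = -0.45 in gossypol lambs.

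With VSIG1 the same 10 genes were all positive within control lambs, from 0.66 for MAP3K15 to 0.93 for MAGEA10. Within gossypol lambs 9 of the 10 were negative, from -0.58 for PRND to -0.05 for SLC4A5, and CYP4F21 was at 0.00. These signs can depend on lamb H48, which had the lowest VSIG1 but high FATE1 (209 CPM) and KIAA1210 (13.5 CPM). For ADAM11, r with VSIG1 in gossypol lambs went from -0.16 to 0.59 without H48. For the 10 genes this was not tested, and no direction is read from their signs. The 4 control lambs with high VSIG1 were above every gossypol lamb in all 10 genes. In 8 of the 10 the same 5 control lambs as in ADAM11 lay above every gossypol lamb, in MAGEA10 only 4 did, and in CYP4F21 8 did. Over all tested IDs at least 5 control lambs lay above every gossypol lamb in 6.36% and at least 4 in 11.6%, and nothing is read from the counts, since these 10 genes were listed for being lower.

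The 7 genes listed as higher in gossypol lambs were compared in the same way. All 7 had a negative r with ADAM11 in both diets. CDH23, a cadherin of calcium-dependent adhesion, had -0.92 in control and -0.86 in gossypol lambs. CACNG4, an auxiliary subunit of calcium channels, had -0.83 and -0.76, and the receptor ERBB3 -0.86 and -0.68. GFRA3, a co-receptor of the GDNF family, had -0.79 and -0.65, and the transporter SLC47A1 -0.84 and -0.36. SMOC2, a secreted calcium-binding protein, had -0.49 and -0.57. The weakest was OC90 with -0.11 and -0.29, and its pairing with an ID is less certain than the others. With diet means subtracted its r with ADAM11 was -0.18, rank 10539 of 17921 profiles. Over all profiles the median of that r, taken without its sign, was 0.39, so OC90 was not set apart. With VSIG1, 6 of the 7 were negative in control lambs, from -0.63 for CDH23. In gossypol lambs 3 of the 7 were, where the part of lamb H48 was not tested either.

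**Figure D4:**
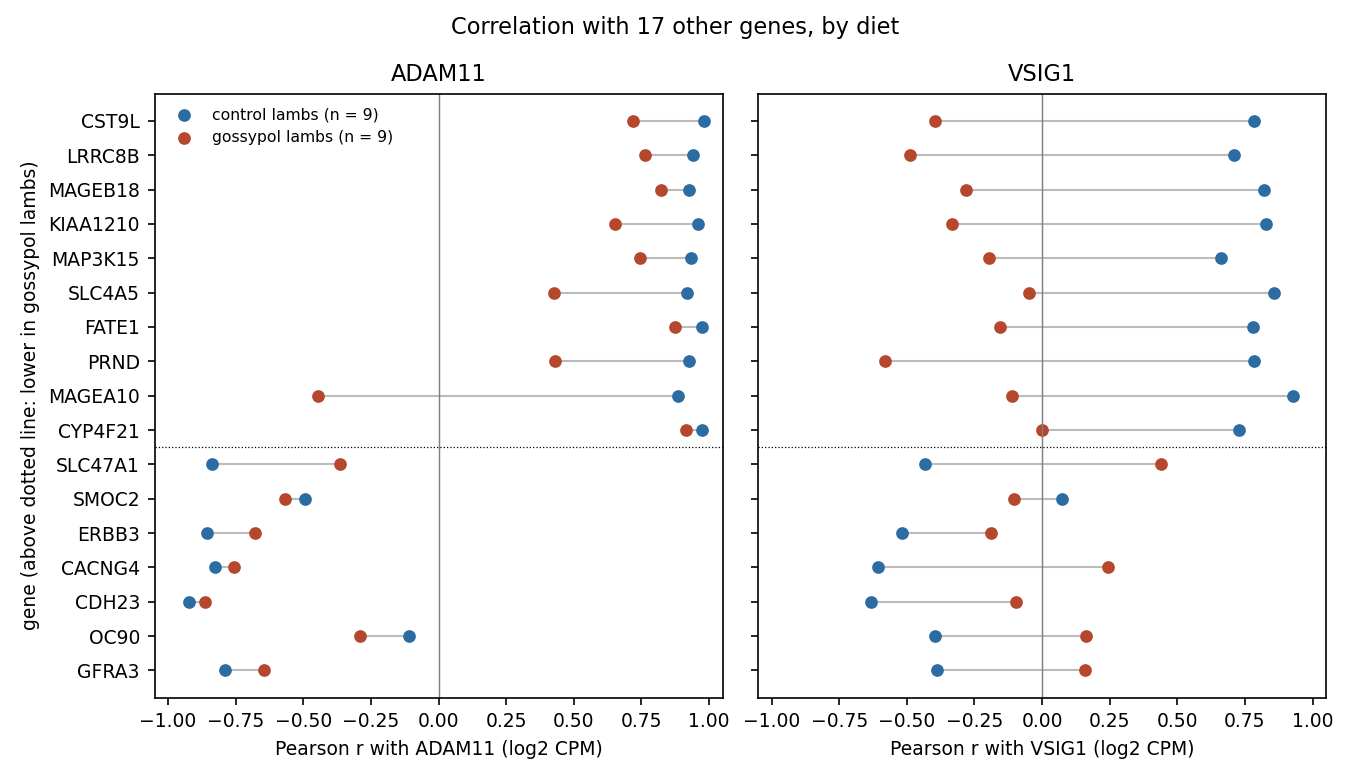
Pearson's r of log2 CPM of 17 genes with ADAM11 (left) and VSIG1 (right), within 9 control lambs and within 9 gossypol lambs. Above the dotted line are 10 genes listed as lower and below it 7 listed as higher in gossypol lambs. With ADAM11 the sign of r is the same in both diets for all genes except MAGEA10, and with VSIG1 the gossypol points of the 10 lower genes lie between -0.58 and 0.00. The gossypol points with VSIG1 can depend on lamb H48, without which r of ADAM11 with VSIG1 changed sign.

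MAGEA10 and SLC4A5 were the genes with symbols closest to VSIG1, and their values were compared lamb by lamb. In gossypol lambs MAGEA10 ran from 2.05 to 6.05 CPM and SLC4A5 from 1.08 to 2.44 CPM. In the 4 control lambs with high VSIG1, MAGEA10 had between 40.6 CPM in H20 and 154 CPM in H22, and SLC4A5 between 37.8 CPM in H06 and 102 CPM in H22. H22 was thus the highest lamb in all 3 genes. The lambs differed in proportion, since H29 had 95.9 CPM of SLC4A5, near the level of H22, but 90.2 CPM of MAGEA10 and 13.6 CPM of VSIG1. Lamb H37 lay between the levels, with 7.95 CPM of SLC4A5, above every gossypol lamb, with 5.76 CPM of MAGEA10, just under the highest gossypol lamb, and with 1.17 CPM of VSIG1. In the other 4 control lambs MAGEA10 was at most 2.99 CPM and SLC4A5 at most 2.16 CPM. In order of ADAM11, then, SLC4A5 exceeded the gossypol range from H37 upwards, and MAGEA10 and VSIG1 from H06 upwards.

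**Figure D5:**
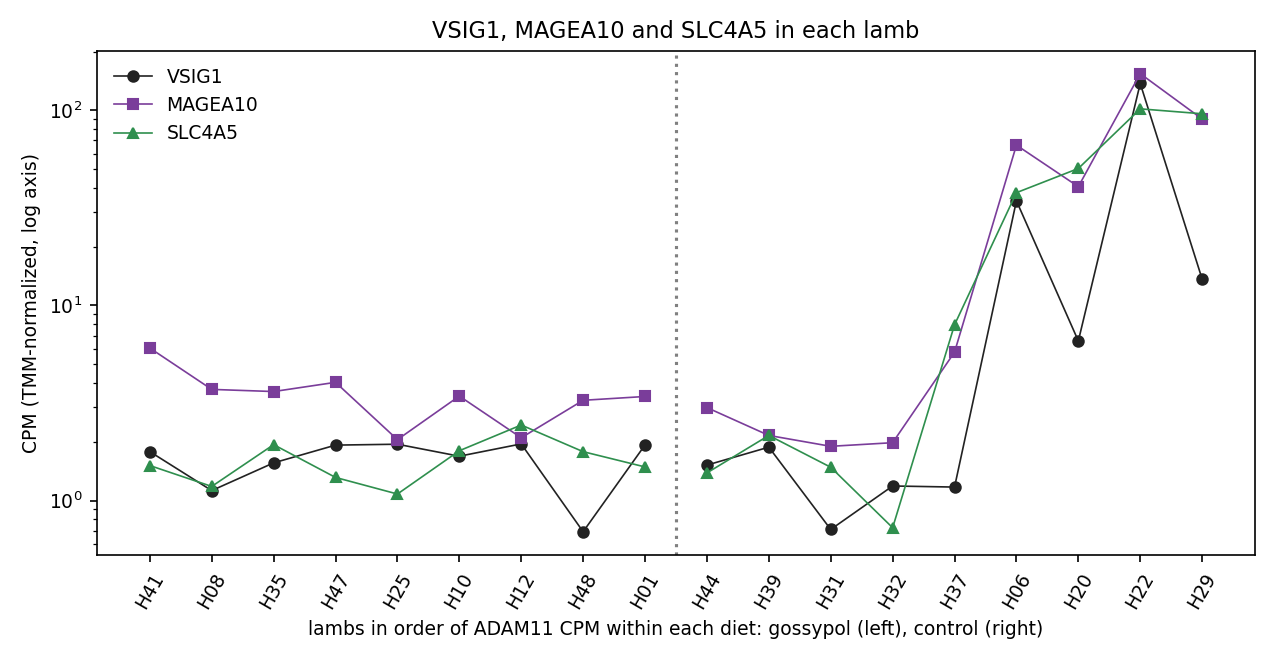
CPM of VSIG1, MAGEA10 and SLC4A5 on a log axis in each of the 18 lambs, in order of ADAM11 within the gossypol-rich diet (left of the dotted line) and within the control diet (right). All 3 genes stay low in the gossypol lambs and in the 4 control lambs lowest in ADAM11, and are high in the 4 control lambs highest in ADAM11, H06, H20, H22 and H29.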

How the data were processed

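Per the labels and the methods of the study, polyadenylated RNA of 1 testicle per lamb was sequenced on a HiSeq instrument. The authors trimmed single-end reads with Trim Galore 0.4.4, aligned them with Tophat2 2.1.1 to Oar_v3.1, assembled transcripts with Cufflinks 2.2.1 and counted reads per gene with htseq. The deposited values are these raw counts, with 1 file per lamb. The strand setting is not given in the sources used here. In the RefSeq annotation of another assembly (ARS-UI_Ramb_v3.0), no annotated gene overlaps ADAM11 or VSIG1, but that table carries no Ensembl IDs. Symbols were therefore paired with IDs by the labelled points of the study's volcano plot.

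Counts were analysed in R 4.3.3. Diets were compared over all IDs passing filterByExpr (minimum count 10, minimum total 15) by the quasi-likelihood test of edgeR 4.0.16 with TMM scaling, no covariates and Benjamini-Hochberg adjustment. Log2 CPM used a prior count of 2. Likeness used 1 ID per distinct count profile. Both genes passed the filter, and neither shares its counts with another ID. The 50 closest profiles were counted, and named were the 10 closest where they had a symbol, otherwise at most 2 IDs on each side, and the genes whose symbols the study gives in its text or marks in its volcano plot. Planned lists of ADAM, junction, integrin and cell type marker genes were not analysed here, because the table of gene names used here carries no Ensembl IDs. Alternatives were RLE scaling, 2 other filters, edgeR's exact and likelihood ratio tests, DESeq2 1.42.0, limma-voom (limma 3.58.1), prior counts of 0.5 and 5, linear CPM, Spearman's rho and leaving out each lamb. Permutation tests of the relation between both genes are not reported, because both were chosen on these lambs. The diet fit and the ranking of followers were also run on simulated counts with planted changes and a planted set of followers. Calls there were made at an FDR of 5% and not 10%, so nothing is read from that run for the calls given here. The genes and lists were chosen with earlier results of these data known. Lambs are separate animals. Whether any shared a dam is not given in the sources used here.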

Additional observations from a re-analysis of the deposited data

Results flagged for a closer look

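Measures of the libraries and log2 CPM of both genes were screened for a lamb far from the others, in 10 groups of 9 lambs, of which chance flags about 1 in 20. The share of counts in the 10 highest IDs was lower in control lamb H44, at 4.62%, than in the next lowest control lamb, H20, at 6.71%. That gap was 0.499 of the range of the control lambs, just over the limit of 0.493. Gossypol lamb H08 had a similar share, 4.92%, and was not flagged in its diet. H44 also had the lowest ADAM11 of its diet, at 33.6 CPM, and its VSIG1 was 1.52 CPM. Neither ADAM11 nor VSIG1 had such a lamb on the log2 scale. The closest was VSIG1 of gossypol lamb H48, at 0.692 CPM.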

How the results depend on the processing

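No paired analysis was possible because the lambs are separate animals and the labels give no number that links them across diets. The log2 fold change of ADAM11 kept its direction in all 7 alternatives, from -3.13 to -2.77, and with each lamb left out, from -3.48 to -2.83. That of VSIG1 also stayed negative, with -1.68 in limma-voom and between -3.95 and -2.23 with each lamb left out. The count of IDs called at an FDR of 10%, 332, was 1733 in edgeR's exact test, 1851 in its likelihood ratio test and 2206 in DESeq2. It was 0 in limma-voom, where 4360 IDs had an unadjusted p under 0.05. With each lamb left out it ran from 0, as without control lamb H06 (3499 IDs at an unadjusted p under 0.05), to 3591 without control lamb H44. The calls among the 50 closest profiles ran from 0 to 49 for ADAM11 and from 0 to 35 for VSIG1 with each lamb left out, and from 21 to 23 and from 9 to 15 in the other alternatives. By Spearman's rho, 28 of the 50 profiles closest to ADAM11 and 20 of those closest to VSIG1 were shared. The correlation of ADAM11 and VSIG1 in control lambs was 0.57 on the linear scale and ran from 0.72 to 0.81 with each lamb left out. In gossypol lambs it ran from -0.37 without H01 to 0.59 without H48, where it turned positive. Over 18 lambs with diet means subtracted it was 0.59, and between 0.55 and 0.66 with each lamb left out. Depth limits VSIG1 in the 14 low lambs, which had 12 to 41 counts each.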
